A study of Mus musculus with 6 samples.

Results

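Macrophages that have taken on an alternative, M2 state secrete growth factors and matrix proteins that help to rebuild tissue. The messenger RNAs (mRNAs) of 10 such proteins were followed here, chosen by name: the growth factors Igf1, Tgfb1, Pdgfa, Pdgfb, Pdgfc and Hbegf, the matrix proteins Fn1, Spp1 and Tgfbi, and the transmembrane glycoprotein Gpnmb. All 10 were found, each on 1 line, among 41549 genes listed. The cells were bone marrow-derived macrophages (Mφs) of adult wild-type C57Bl/6 N mice, grown with macrophage colony-stimulating factor. In the αGlu group (named Glu in the labels) the Mφs were transfected with an LNA antisense oligonucleotide against 5′tRF-Glu(CTC), which is the 5′ part of a tRNA for glutamate, and in the Ctr group with a control antisense. Both groups were then polarized with IL-4 and IL-13, so every library is from M2-polarized cells, and the comparison asked what blocking the fragment before polarization does to their transcripts. Each group had 3 libraries, which the study describes as independent experiments. Sex and number of donor mice were not given for the single libraries.

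The oligonucleotide is shown because it defines the αGlu group. In the target, capitals mark the bases with which it can pair.

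antisense: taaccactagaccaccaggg

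target: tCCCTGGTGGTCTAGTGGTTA

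As background, these proteins act between cells. IGF1 promotes survival and growth through the IGF1 receptor. TGF-β1 is secreted in a latent form, held by binding proteins until integrins or proteases release it, and drives matrix production through SMAD proteins. PDGF chains pair into dimers that recruit fibroblasts and smooth muscle cells, and HB-EGF is cut from the cell surface to activate the EGF receptor. Fibronectin (Fn1), osteopontin (Spp1) and the TGF-β-induced protein (Tgfbi) are secreted and bind integrins on neighbouring cells. GPNMB is abundant in lipid-loaded and alternatively activated Mφs and is a known target of the transcription factor MITF.

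The libraries held between 17912831 and 30386653 counts, and 11933 genes, with all 10 members among them, passed the low-count filter. Libraries of a group differed by more than sampling noise (chi-square per gene of 19.8 or more for each pair). αGlu 1 stood apart from αGlu 2 and 3, with values of 253 and 250.6 against 21.6 between αGlu 2 and 3. The members are therefore also described without it, on αGlu 2 and 3 alone. As αGlu 1 was left out for its values in these data, intervals and p-values without it can be too narrow and too small. All 7 Mφ markers that were examined, from Adgre1 and Csf1r to Lyz2, exceeded 1 TPM in every library. Of 7 alternative activation markers, 5 or 6 did so, with Chil3 at the highest level. The log2 fold change was positive for 5 of these 7, with a median of 0.57. With all libraries edgeR called 0 of them, and DESeq2 called 2 higher and 0 lower. Without αGlu 1 edgeR called 4 higher and 1 lower, against 18.6% of all genes tested. Arg1 was at 33.6 to 60.4 TPM in Ctr, 32.7 TPM in αGlu 1 and 2711 and 2643 TPM in αGlu 2 and 3, whereas Retnla was at 1221 to 2773 TPM in Ctr, 525 TPM in αGlu 1 and 0.168 and 0.201 TPM in αGlu 2 and 3. TPM is a read count scaled by transcript length and to a fixed library total, and is used below to compare genes. CPM is a read count scaled to the library size after adjustment with the trimmed mean of M-values (TMM), and is used to compare libraries. Dendritic cell markers summed to 36.9 to 44.3 TPM in Ctr and to 29.7, 12.6 and 12.6 TPM in αGlu 1, 2 and 3, with Batf3 as the main gene, and neutrophil markers to 101 to 136 TPM and to 164, 487 and 560 TPM, nearly all from Csf3r. The other neutrophil markers were at low levels and did not move together. Ngp, Mpo, S100a9 and Cxcr2 were below every Ctr library in αGlu 2 and 3, whereas S100a8 and Camp were above. Megakaryocyte and platelet markers, of cells rich in PDGF, summed to 11.6, 15.6 and 22.2 TPM in Ctr. In αGlu 1, 2 and 3 they summed to 9.87, 12.8 and 12.9 TPM. Of these 8 markers 4 were tested, all 4 had a negative fold change, and edgeR called 0. With no overlap, 2 were lower in αGlu, against 15.9% of all genes tested. Their part in the results below was not tested.

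In Ctr Mφs the 10 transcripts spanned more than 3 orders of magnitude. Gpnmb was by far the highest at 9479 ± 696 TPM (SD, n = 3), and it ranked between 11 and 15 among all genes listed in these libraries. Spp1 followed with 1206 ± 338 TPM and Igf1 with 475 ± 33.4 TPM. Gpnmb alone made up 81.9% to 84.7% of the summed TPM of the 10 members.

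Tgfb1 had 126 ± 18.6 TPM in Ctr and Tgfbi 72.4 ± 11.9 TPM (SD, n = 3). Pdgfa was at 29.8 ± 0.59 TPM, Fn1 at 16.6 ± 13.4, Pdgfb at 14.3 ± 3.06, Pdgfc at 7.05 ± 1.83 and Hbegf at 2.998 ± 0.69. Neighbours in this order did not overlap between libraries, other than Fn1, whose libraries overlapped those of Pdgfa, Pdgfb and Pdgfc. In αGlu 2 and 3 the order was different. Tgfbi, with 1279 and 926 TPM, stood directly behind Gpnmb, and Fn1, with 1.13 and 1.26 TPM, was the lowest of the 10.

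**Figure D1:**
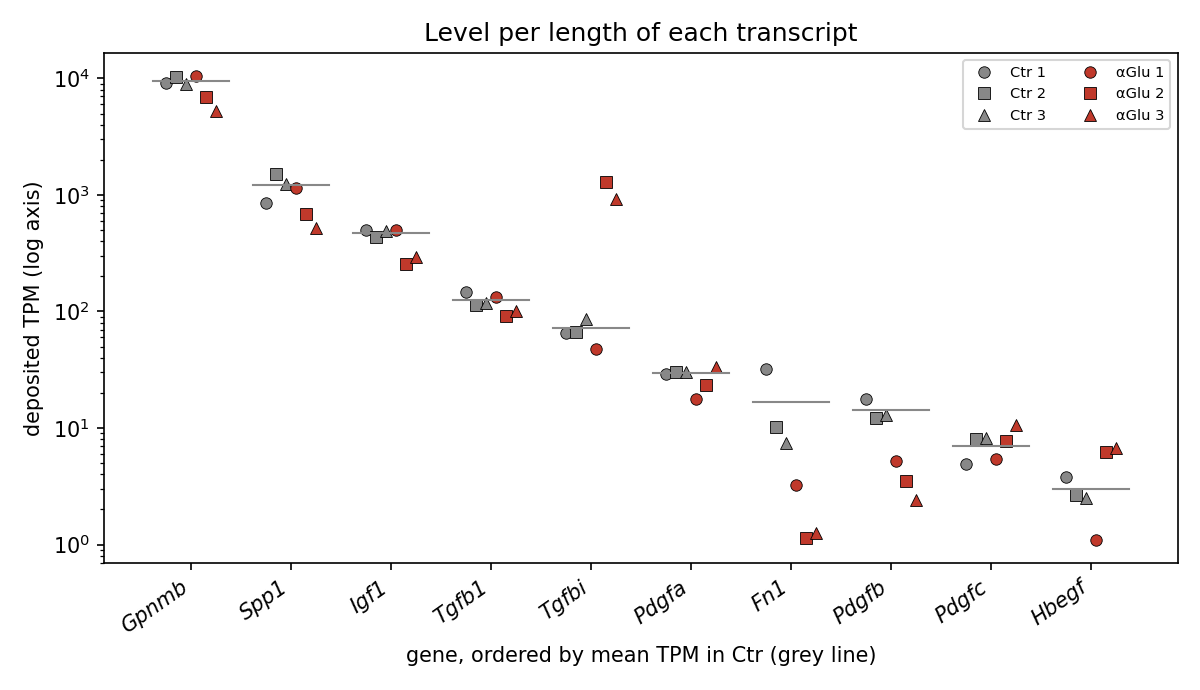
Deposited TPM (log axis) of each gene in the 6 libraries, ordered by the mean of the Ctr libraries (grey line); grey points are Ctr, red points αGlu, and shapes are library numbers. Gpnmb is highest in every library, and Tgfbi reaches 1279 and 926 TPM in αGlu 2 and 3.

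The set of RefSeq promoter windows used here (GRCm38.p6) held 7 of the 10 members, with 9 windows in all. Each window had 300 bases around the start of transcription. Both strands were searched for TGACTCA (AP-1), TCATGTGA (the M-box of MITF), CACGTG (E-box), AGCCAGACA (the SMAD CAGA box), TTC and GAA spaced by 4 bases (STAT6), and the NF-κB consensus. AP-1 was found in 1 of the 9 windows, that of Gpnmb, 8 bases after the start, and in 5.20% of all 32851 windows. The NF-κB consensus was found in 3, for Pdgfa, Pdgfc and Tgfb1, and in 8.46% of all windows. The other motifs were found in 0 of the 9, and in 0.986% (M-box), 7.15% (E-box), 0.387% (CAGA box) and 6.95% (STAT6) of all windows.

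Below are the windows of Gpnmb, the most abundant member, with the AP-1 match in capitals (chr6:49036268-49036567, plus strand), and of Tgfbi, which stood behind it in αGlu 2 and 3 (chr13:56609336-56609635, plus strand), in which none of the motifs was found. Their GC contents were 47.7% and 63.3%. A match in these letters is a description and not evidence of binding.

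Gpnmb: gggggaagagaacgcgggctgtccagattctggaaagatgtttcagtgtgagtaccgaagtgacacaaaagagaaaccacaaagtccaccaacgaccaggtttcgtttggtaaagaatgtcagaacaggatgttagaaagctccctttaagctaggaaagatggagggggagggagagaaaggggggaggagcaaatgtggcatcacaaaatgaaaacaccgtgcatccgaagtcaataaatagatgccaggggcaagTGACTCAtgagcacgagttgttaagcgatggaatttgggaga

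Tgfbi: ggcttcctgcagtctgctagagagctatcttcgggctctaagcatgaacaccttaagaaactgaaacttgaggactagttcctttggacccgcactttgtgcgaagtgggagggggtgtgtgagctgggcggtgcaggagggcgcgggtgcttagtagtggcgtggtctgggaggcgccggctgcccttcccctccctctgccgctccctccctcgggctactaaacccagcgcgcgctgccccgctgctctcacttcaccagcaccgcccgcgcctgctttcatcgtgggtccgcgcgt

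When the groups were compared, Pdgfb and Fn1 were lower in every αGlu library than in any Ctr library, and Tgfbi was more than 10-fold above Ctr in αGlu 2 and 3. Igf1, Tgfb1, Spp1 and Gpnmb were lower in αGlu 2 and 3 only, with αGlu 1 at Ctr levels. With edgeR's quasi-likelihood test on all 6 libraries, 0 of the 10 members were called (adjusted p below 0.1 with a change of more than 1 log2 unit), and the share called among all genes was 0%. Without adjustment, p was below 0.05 for 3 members (Pdgfb, Fn1 and Tgfbi), as it was for 24.7% of all genes. Limma-voom called 0 members. DESeq2 called the same 3, against 8.16% of the genes it gave an adjusted p.

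Without αGlu 1, edgeR called 5 members, namely Pdgfb, Hbegf, Fn1, Spp1 and Tgfbi, against 18.6% of all genes tested. Igf1, Tgfb1 and Gpnmb then also had an adjusted p under 0.1, with smaller fold changes. The median log2 fold change of the 10 members was -0.38 with all libraries and -0.62 without αGlu 1, compared with 0.02 and 0.01 over all genes tested. Because αGlu 1 decides these calls, each gene is described below by its single libraries first.

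**Figure D2:**
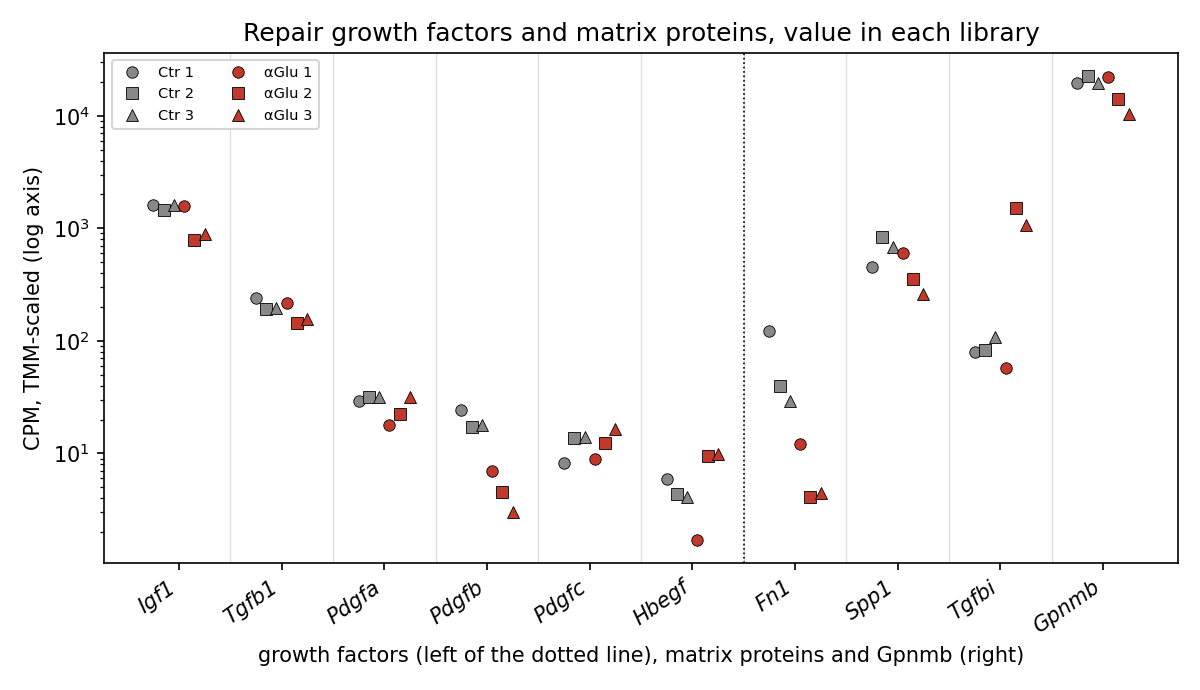
CPM on the TMM-adjusted library size (log axis) of the 10 members in each library; grey points are Ctr, red points αGlu, shapes are library numbers, and the dotted line separates the growth factors from the other members. For Pdgfb and Fn1 all red points lie below all grey points, and for Igf1, Spp1 and Gpnmb the red circle (αGlu 1) lies among the grey points.

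Among the growth factors, Pdgfb (ENSMUSG00000000489, chromosome 15, 79995874 to 80014977, minus strand, GRCm38) showed the clearest difference. It encodes the PDGF-B chain, which signals through both PDGF receptors and recruits pericytes and fibroblasts. Its values were 24.1, 17.1 and 18.003 CPM in Ctr 1, 2 and 3, and 7.05, 4.596 and 3.04 CPM in αGlu 1, 2 and 3. The groups did not overlap, and the lowest Ctr library was 2.42-fold above the highest αGlu library. This gave a log2 fold change of -2.02 ± 0.33 (SE, 95% interval -2.82 to -1.22, edgeR adjusted p 0.149), and with DESeq2 the adjusted p was 3.15e-06. Leaving out 1 library gave values from -2.36 to -1.77, and without αGlu 1 the adjusted p was 0.000679.

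Pdgfa (ENSMUSG00000025856, chromosome 5, 138976014 to 138997370, minus strand, GRCm38) encodes the PDGF-A chain, which can pair with PDGF-B, and overlapped between the groups. It stood at 29.5, 31.5 and 31.5 CPM in Ctr libraries and 17.9, 22.6 and 31.5 CPM in αGlu, with αGlu 1 the lowest library and αGlu 3 inside the Ctr range. Its log2 fold change was -0.36 ± 0.20 (SE, edgeR adjusted p 0.301), and -0.20 ± 0.14 without αGlu 1 (adjusted p 0.321). An antisense gene, 6330403L08Rik, overlaps it and had 1184 reads over the 6 libraries against 3967 for Pdgfa. Whether the counting used strand was not given in the sources used here.

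The balance of both chains, a comparison chosen after their values had been seen, can be read within a library. Pdgfa had 1.63, 2.46 and 2.33 times the TPM of Pdgfb in Ctr 1, 2 and 3. The ratio was 3.38, 6.55 and 13.8 in αGlu 1, 2 and 3, so that every αGlu library lay above every Ctr library.

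Pdgfc (ENSMUSG00000028019, chromosome 3, 81036416 to 81214040, plus strand, GRCm38) encodes a chain that has to be cleaved before it binds its receptor. It gave 8.18, 13.7 and 13.97 CPM in Ctr and 8.89, 12.4 and 16.4 CPM in αGlu, and the groups overlapped almost entirely. Its log2 fold change was 0.07 ± 0.30 (SE, 95% interval -0.65 to 0.80, edgeR adjusted p 0.882), an interval that leaves room for changes of over 1.5-fold in either direction. Its sign turned negative without Ctr 1 or without αGlu 3, at -0.13 and -0.16.

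Igf1 (ENSMUSG00000020053, chromosome 10, 87858265 to 87937042, plus strand, GRCm38) was the most abundant growth factor of the set. Ctr libraries held 1610, 1453 and 1615 CPM, and αGlu 1, 2 and 3 held 1583, 785 and 884 CPM. αGlu 1 thus lay inside the Ctr range, and the mean of αGlu 2 and 3 was 1.87-fold below the Ctr mean. With all libraries the log2 fold change was -0.52 ± 0.29 (SE, edgeR adjusted p 0.293). Without αGlu 1 it was -0.91 ± 0.11 (adjusted p 0.00124), which is short of the fold limit.

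Tgfb1 (ENSMUSG00000002603, chromosome 7, 25687002 to 25705077, plus strand, GRCm38), a ligand of the TGF-β receptors, was lower in the same libraries, but by less. Its values were 241, 191 and 197 CPM in Ctr and 218, 143 and 156 CPM in αGlu. αGlu 1 was again inside the Ctr range, and the other αGlu libraries were below it. For this gene the log2 fold change was -0.29 ± 0.19 (SE, edgeR adjusted p 0.362), and -0.49 ± 0.13 without αGlu 1 (adjusted p 0.0226).

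Hbegf, the least abundant member in Ctr, lay on both sides of Ctr within the αGlu group. It had 5.95, 4.35 and 4.08 CPM in Ctr, 1.72 CPM in αGlu 1 and 9.44 and 9.87 CPM in αGlu 2 and 3. The value of αGlu 1 rests on 30 reads. It was below every Ctr library, whereas αGlu 2 and 3 were above all of them. With all libraries the log2 fold change was 0.56 ± 0.61 (SE, edgeR adjusted p 0.568), and without αGlu 1 it was 1.01 ± 0.19 (adjusted p 0.0071).

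Of the matrix proteins, Fn1 (ENSMUSG00000026193, chromosome 1, 71585520 to 71653200, minus strand, GRCm38) had the largest negative fold change of the 10. Fibronectin forms fibrils on which other matrix proteins and integrins assemble. Its values were 122, 40.2 and 29.2 CPM in Ctr and 12.2, 4.12 and 4.47 CPM in αGlu 1, 2 and 3. The groups did not overlap, although the Ctr libraries themselves differed by more than 4-fold, with Ctr 1 the highest. Fn1 had a log2 fold change of -3.23 ± 0.73 (SE, 95% interval -5.01 to -1.44, edgeR adjusted p 0.156), and DESeq2 gave an adjusted p of 9.12e-05. Without Ctr 1 it was -2.33 (edgeR adjusted p 0.351), and without αGlu 1 it was -3.89 ± 0.72 (adjusted p 0.00698).

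Both Pdgfb and Fn1 thus showed no overlap with lower αGlu values, and 0 members showed it with higher values. Over all genes tested, 15.9% were lower and 14.2% were higher in αGlu with no overlap. Exact permutation tests of the mean log2 CPM gave p = 0.1 for Pdgfb and Fn1 (two-sided), the smallest value that 3 against 3 libraries allow, and from 0.2 to 1 for the other members.

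Transcripts of fibroblasts, cells that produce much fibronectin, were low, and without Pdpn their sum was highest in Ctr 1, as Fn1 was. Of 9 fibroblast markers, Lum was at 0 in αGlu 1 and all Ctr libraries and at 0.124 and 0.295 TPM in αGlu 2 and 3, and Pdpn, which made up most of the sum, was highest in αGlu 2 and 3. The other 8 markers summed to 4.15, 1.77 and 1.83 TPM in Ctr and to 1.62, 0.648 and 1.205 TPM in αGlu 1, 2 and 3. With Pdpn the sums were 10.5 to 29.3 TPM in Ctr and 11.6 to 195 TPM in αGlu. Col1a1 was at 0.959, 0.0569 and 0.190 TPM in Ctr, at 0.163 TPM in αGlu 1 and at 0 in αGlu 2 and 3. Col1a2, Col3a1, Postn, Thy1 and Col5a2, all at low levels, were likewise below every Ctr library in αGlu 2 and 3. Dcn did not follow them, at 0.144, 0.427 and 0.0951 TPM in Ctr and 0.305, 0.397 and 0.764 TPM in αGlu 1, 2 and 3. With all libraries edgeR called 0 of the 5 markers tested. Without αGlu 1 it called 5 lower and 1 higher of 7 tested, against 18.6% of all genes. The median log2 fold change of these 7 was -3.55. In αGlu 2 and 3 Dcn made up most of the sum without Pdpn. Their part in the Fn1 result was not tested, and in bulk libraries fewer cells of a type and less RNA per cell cannot be told apart.

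Tgfbi (ENSMUSG00000035493, chromosome 13, 56609523 to 56639562, plus strand, GRCm38) had the largest positive fold change of the 10. It was at 79.5, 83.7 and 109 CPM in Ctr, at 58.0 CPM in αGlu 1, and at 1506 and 1062 CPM in αGlu 2 and 3. The mean of αGlu 2 and 3 was 14.2-fold above the Ctr mean, while αGlu 1 lay below every Ctr library. Tgfbi had a log2 fold change of 3.27 ± 1.05 (SE, 95% interval 0.69 to 5.85, edgeR adjusted p 0.163). Without αGlu 1 it was 3.82 ± 0.21 (95% interval 3.32 to 4.32, adjusted p 6.29e-05), with only αGlu 2 and 3 left in the group. DESeq2 gave an adjusted p of 0.0321 with all libraries.

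Spp1 (ENSMUSG00000029304, chromosome 5, 104435118 to 104441050, plus strand, GRCm38) encodes osteopontin, a phosphoprotein that binds integrins and CD44. It had 457, 845 and 682 CPM in Ctr and 606, 352 and 259 CPM in αGlu. αGlu 1 was inside the Ctr range, and αGlu 2 and 3 were below it. The log2 fold change was -0.70 ± 0.37 (SE, edgeR adjusted p 0.278), and -1.12 ± 0.28 without αGlu 1 (adjusted p 0.0202).

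Gpnmb (ENSMUSG00000029816, chromosome 6, 49036546 to 49070929, plus strand, GRCm38) had the same layout at a much higher level. It stood at 19424, 22462 and 19569 CPM in Ctr, 21958 CPM in αGlu 1, and 14000.0 and 10346 CPM in αGlu 2 and 3. The mean of αGlu 2 and 3 was 1.68-fold below Ctr. Its log2 fold change was -0.41 ± 0.37 (SE, edgeR adjusted p 0.498), and -0.76 ± 0.17 without αGlu 1 (adjusted p 0.0138).

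Spp1 and Gpnmb are also transcribed in osteoclasts, cells that form from the same precursors, and the summed osteoclast markers, most of them Atp6v0d2, were lower in αGlu 2 and 3. The 8 markers summed to 3106 to 3240 TPM in Ctr, to 2943 TPM in αGlu 1 and to 1283 and 977 TPM in αGlu 2 and 3. Of the 8, 6 were tested and all 6 had a negative fold change. The median log2 fold change was -0.92, against 0.02 over all genes tested. With no overlap, 3 were lower in αGlu, against 15.9% of all genes tested. Atp6v0d2, also expressed by alternatively activated Mφs, was the main gene in every library. The other 7 summed to 428, 618 and 407 TPM in Ctr and to 220, 335 and 196 TPM in αGlu 1, 2 and 3, so that αGlu 1 was below αGlu 2, unlike for Spp1 and Gpnmb. Acp5 was above every Ctr library in αGlu 2, at 104 TPM, and Ctsk was inside the Ctr range there, at 199.6 TPM. Dcstamp, which is needed for cell fusion, was at 50.9, 56.0 and 43.9 TPM in Ctr, 9.95 TPM in αGlu 1 and 0.265 and 0.272 TPM in αGlu 2 and 3. Ocstamp was at 71.6, 60.9 and 46.8 TPM in Ctr, 4.43 TPM in αGlu 1 and 0.110 and 0.132 TPM in αGlu 2 and 3. Calcr was at 0 in all libraries. The part of these cells in the Spp1 and Gpnmb results was not tested.

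**Figure D3:**
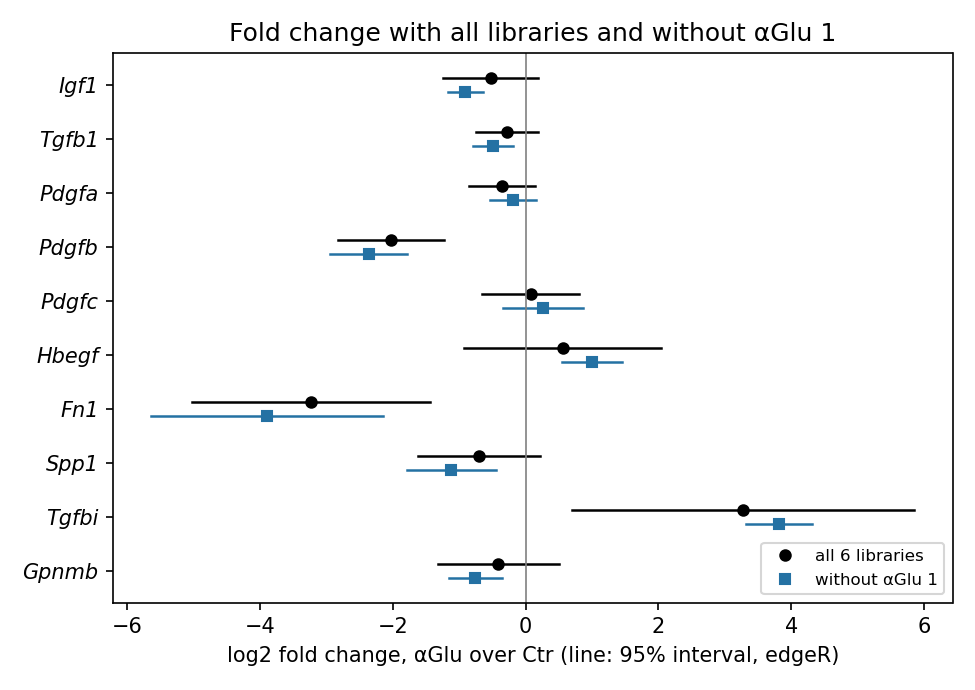
Log2 fold change of αGlu over Ctr for each member with its 95% interval from edgeR's quasi-likelihood fit, with all 6 libraries (black circles) and without αGlu 1 (blue squares). Without αGlu 1 the interval of Tgfbi narrows from 0.69 to 5.85 to 3.32 to 4.32, and those of Igf1, Tgfb1, Hbegf, Spp1 and Gpnmb no longer include 0.

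Over the 10 members together, αGlu 1 lay farther from αGlu 2 and 3 than from any Ctr library. The root-mean-square difference of log2 CPM was 1.83 and 1.79 between αGlu 1 and αGlu 2 and 3, and 0.825 to 1.34 between αGlu 1 and the Ctr libraries. αGlu 2 and 3 differed by 0.378. In αGlu 1, 5 members lay inside the Ctr range, and the other 5 (Pdgfa, Pdgfb, Hbegf, Fn1 and Tgfbi) were below it. The shares of all genes inside and below the Ctr range in αGlu 1 were not determined. In αGlu 2 and 3, 6 members were below every Ctr library and 2, Hbegf and Tgfbi, were above, compared with 32.2% and 33.6% of all genes tested.

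The genes whose pattern over the 6 libraries was most like that of the members were listed for Fn1, Tgfbi and Pdgfb, which had the widest range. Likeness was the root-mean-square difference of log2 CPM after centring each gene. For Fn1 these were Ube2c, Il1rl1 and Cenpf, at 0.261, 0.271 and 0.304. In αGlu 2 and 3, Ube2c was at 0.0630 and 0.0734 CPM and Cenpf at 0.0630 and 0.110 CPM, near the count floor. Il1rl1, at 0.283 and 0.220 CPM in these libraries, was also near it. There the prior count of 2 shrinks differences in log2 CPM, so their likeness to Fn1 is only approximate. Ube2c and Cenpf act in mitosis, and Il1rl1 is the IL-33 receptor.

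For Tgfbi they were Slc16a3, a lactate transporter, at 0.243, Il20rb at 0.2696 and Il1r1, the IL-1 receptor, at 0.2796. Il1r1 was at 2.78 to 3.09 CPM in Ctr, at 2.18 CPM in αGlu 1 and at 39.1 and 44.0 CPM in αGlu 2 and 3. For Pdgfb they were Mcm10, which acts in DNA replication, at 0.0881, Nptxr at 0.159 and Stac2 at 0.164. Nptxr was also near the count floor, at 0.283 and 0.147 CPM in αGlu 2 and 3. Mcm10 was at 4.01 to 4.91 CPM in Ctr and, in the same order of libraries as Pdgfb, at 1.61, 0.881 and 0.587 CPM in αGlu 1, 2 and 3.

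The surroundings of these proteins were described with 9 lists of related genes, 149 genes in all, of which 101 were tested. edgeR called 0 of them with all libraries, and limma-voom 0. DESeq2 called 22 of the 149, against 8.16% of the genes it gave an adjusted p. How many of the 149 had such a value was not counted, so these shares have unlike bases. An unadjusted p under 0.05 was found for 33, against 24.7% of all genes. Without αGlu 1 edgeR called 46 of 107 tested, 17 higher and 29 lower, against 18.6% of all genes. No overlap between groups was seen for 14 that were higher and 16 that were lower in αGlu, against 14.2% and 15.9% of all genes, shares close to this background. Every list gene named below had the same sign of its fold change without αGlu 1, with log2 fold changes then of, for example, 1.45 for Vegfa, -2.16 for Cd9, 2.64 for Skil, -1.43 for Id2 and -2.01 for Tfeb.

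Other repair growth factors had 9 of 20 genes tested, with a median log2 fold change of 0.27 and 6 positive values. Vegfa, the main angiogenic factor, was at 40.2, 33.4 and 44.2 CPM in Ctr, compared with 62.2, 127 and 87.4 CPM in αGlu. It was higher in every αGlu library, with a log2 fold change of 1.23 ± 0.27 (SE, edgeR adjusted p 0.155). Pgf, its close relative, did not exceed 0.543 CPM in Ctr and was at 0.344, 8.06 and 11.9 CPM in αGlu 1, 2 and 3. Grn, which encodes progranulin, was the most abundant of the list at a mean of 2008 TPM, with a log2 fold change of -0.22 ± 0.29 (edgeR adjusted p 0.651).

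Of 14 receptors for these ligands 10 were tested, and 7 had negative values around a median of -0.07. Tgfbr3, a co-receptor for TGF-β, was at 2.14, 0.836 and 0.464 CPM in Ctr, against 0.0574, 0.0944 and 0.220 CPM in αGlu, with no overlap at very low counts (log2 fold change -3.10 ± 0.77, edgeR adjusted p 0.156). Igf2r, which takes up IGF2 and lysosomal enzymes, was the most abundant receptor at a mean of 111 TPM and had a log2 fold change of -0.50 ± 0.23 (SE, edgeR adjusted p 0.231).

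Of 11 IGF-binding proteins and their regulators only 3 were tested. Igfbp4, the highest at a mean of 8.53 TPM, overlapped between groups, as did Igfbp5 and Igfbp7, and the log2 fold changes were -0.34 ± 0.50, -1.62 ± 1.55 and -0.57 ± 0.32 (SE).

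TGF-β storage, activation and HB-EGF shedding had 12 of 17 genes tested, 6 in each direction. Thbs1, which can release TGF-β1 from its latent form, was at 12.4, 11.2 and 10.02 CPM in Ctr libraries and 10.4, 479 and 400.5 CPM in αGlu 1, 2 and 3. αGlu 1 was inside the Ctr range, as for several members above. Its log2 fold change was 4.73 ± 1.28 (SE, edgeR adjusted p 0.157), and 5.29 without αGlu 1 (adjusted p 7.43e-06).

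Adam9, a membrane protease, was higher in every αGlu library, at 289, 425 and 474 CPM against 235 to 258 CPM in Ctr (log2 fold change 0.67 ± 0.20, edgeR adjusted p 0.160). Cd9, a tetraspanin that associates with the membrane form of HB-EGF, was at 606, 585 and 564 CPM in Ctr, compared with 392.1, 143 and 120.0 CPM in αGlu. It was lower in every αGlu library, with a log2 fold change of -1.42 ± 0.47 (SE, edgeR adjusted p 0.167).

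All 20 SMAD and TGF-β response genes were tested, with a median of 0.14 and 11 positive values. Skil, a repressor that TGF-β itself induces, was at 29.2, 28.4 and 36.9 CPM in Ctr, against 39.5, 196 and 198 CPM in αGlu, higher in every αGlu library (log2 fold change 2.20 ± 0.60, edgeR adjusted p 0.157). Bambi, a decoy receptor of the family, was lower in every αGlu library at -0.97 ± 0.28 (SE, edgeR adjusted p 0.159). Id2, the most abundant of the list at a mean of 338 TPM, was at 343 CPM in αGlu 1 and at 138 and 113 CPM in αGlu 2 and 3, against 290 to 398 CPM in Ctr.

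Other matrix proteins and proteoglycans had 20 of 32 genes tested, with a median of -0.69 and 14 negative values. Nid1, a basement membrane protein, was at 3.09, 0.752 and 1.30 CPM in Ctr libraries and 0.115, 0.0315 and 0.0367 CPM in αGlu, and Sparc at 5.82, 1.003 and 1.995 CPM and 0.803, 0.252 and 0.220 CPM. Both were lower in every αGlu library and highest in Ctr 1, as Fn1 was. The log2 fold changes were -4.86 ± 0.81 and -2.86 ± 0.85 (SE, edgeR adjusted p 0.149 and 0.160). Counts in αGlu were very low, most of all for Nid1, so the size of these changes is uncertain. Lgals3, encoding galectin-3, was the most abundant at a mean of 11902 TPM and was lower in every αGlu library, by a log2 fold change of -0.39 ± 0.21 (edgeR adjusted p 0.288).

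Of 13 receptors for matrix proteins 11 were tested, 8 with negative values. Itga9, a chain of an integrin that binds osteopontin, was at 2.05 to 2.69 CPM in Ctr, compared with 3.38, 17.3 and 20.9 CPM in αGlu (log2 fold change 2.59 ± 0.65, edgeR adjusted p 0.156). Sdc4, a co-receptor for fibronectin, was at 127 to 147 CPM in Ctr, against 174, 549 and 731 CPM in αGlu (1.82 ± 0.50, edgeR adjusted p 0.157). Both were higher in every αGlu library. Sdc3, the most abundant, was within the Ctr range in αGlu 1 at 1001 CPM and at 411 and 394 CPM in αGlu 2 and 3.

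Enzymes that crosslink or modify matrix had 12 of 18 genes tested, 6 in each direction. Plod1, a lysyl hydroxylase of collagen, and Loxl3 were higher in every αGlu library by small amounts, with log2 fold changes of 0.51 ± 0.11 and 0.38 ± 0.11 (SE, edgeR adjusted p 0.154 and 0.159). P4hb, the most abundant, had a log2 fold change of -0.11 ± 0.11 and overlapped between the groups.

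The 4 factors of the MITF family, which include the known regulator of Gpnmb, differed among themselves. Mitf was at 145 to 157 CPM in Ctr libraries and 154, 166 and 166 CPM in αGlu (log2 fold change 0.11 ± 0.08, SE, edgeR adjusted p 0.394). Tfec was higher in every αGlu library, at 73.4, 179 and 194 CPM against 48.6 to 68.2 CPM. Tfeb was at 79.6 to 94.2 CPM in Ctr, at 86.7 CPM in αGlu 1, and at 21.8 and 21.6 CPM in αGlu 2 and 3.

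**Figure D4:**
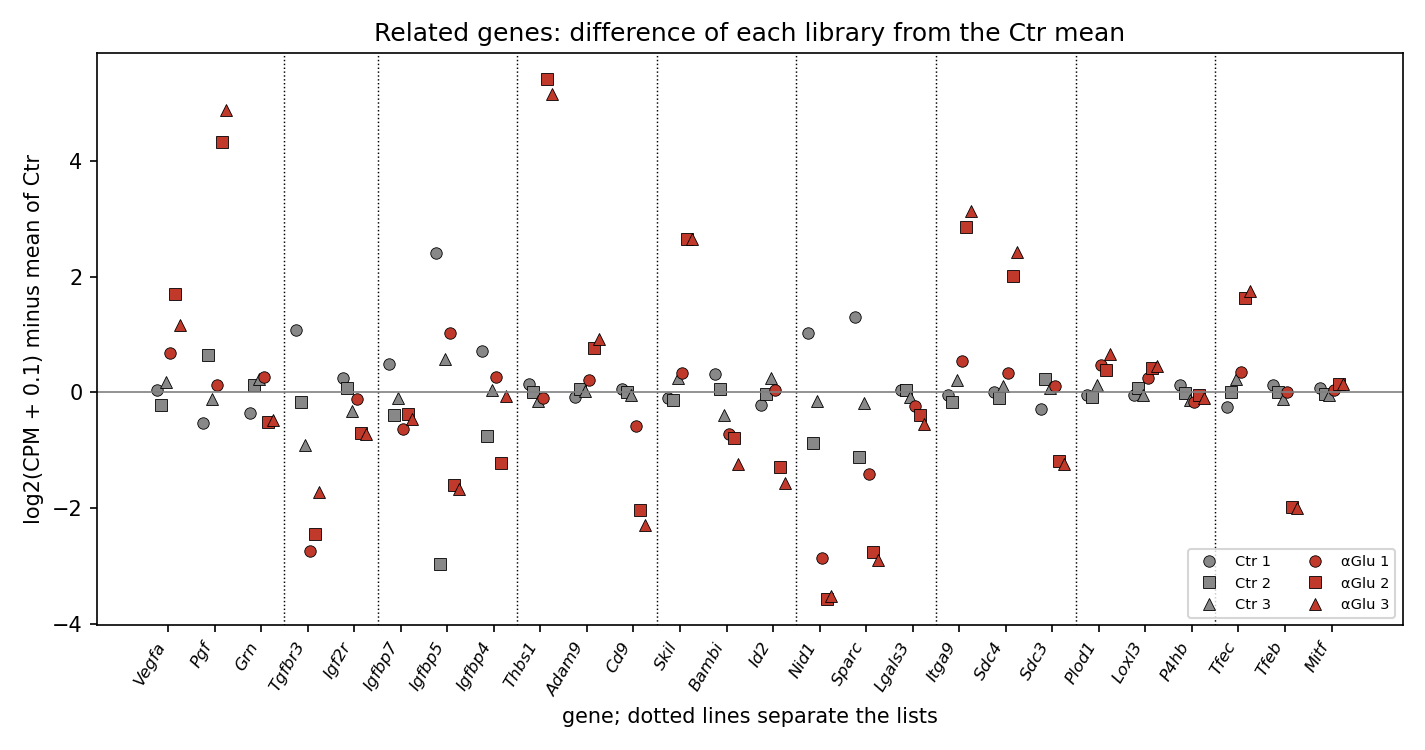
Difference of each library from the Ctr mean, as log2(CPM + 0.1), for the named genes of the 9 lists; grey points are Ctr, red points αGlu, shapes are library numbers, and dotted lines separate the lists in the order of the text. Thbs1 and Pgf lie more than 4 units above Ctr in αGlu 2 and 3 but near 0 in αGlu 1 (red circle).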

How the data were processed

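mRNA of 3 Ctr and 3 αGlu libraries of M2-polarized Mφs was measured with the Illumina Stranded mRNA kit. Reads were annotated and normalized by the authors in the Analysis Portal of QIAGEN. GRCm38 is named in the submitters' processing notes, and the aligner and annotation are not given in the sources used here. The deposited counts are unnormalized whole reads summed over each gene's exons. The deposited TPM values are scaled by exon length to the same total in each library, and the deposited RPKM values by length and depth. Values named CPM by the authors are a signal scaled with an effective library size. This column and RPKM were not used.

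Total counts were 17912831 to 30386653, so precision is limited by the 3 libraries per group. Coordinates are from GENCODE M21 (GRCm38), matched by gene identifier.

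Counts were filtered with filterByExpr (minimum count 10, minimum total 15), scaled with TMM factors and fitted with edgeR 4.0.16 in R 4.3.3 (quasi-likelihood, group as the only term, two-sided, Benjamini-Hochberg over 11933 genes). Calls needed an adjusted p below 0.1 and a change of more than 1 log2 unit. SE is the fold change over the root of its F statistic. Log2 CPM has a prior count of 2. The models were also run on simulated counts with known fold changes. These were drawn with the spread of the Ctr libraries, so they hold no library like αGlu 1 and do not cover that case. Alternatives were DESeq2 1.42.0, limma-voom (limma 3.58.1), scaling by RLE, by upper quartile or by the library size only, other filters and thresholds, the replicate number as a block, and each library left out. DESeq2 without αGlu 1 was added after the data had been seen.

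The members and lists were chosen with earlier results of these data known. Named are all 10 members, from each list the 2 genes with the smallest p and the 1 with the highest mean TPM, and for the 3 members of widest range the 3 genes most alike, gene models left out. Fibroblast and osteoclast markers are named beside the results they move with. Proteins and the promoters of the other members were not analysed here. P-values measure the spread between these libraries, whose separate origin rests on the study's word.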

Additional observations from a re-analysis of the deposited data

How the results depend on the processing

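Which genes were called turned on the tool and on αGlu 1. Both limma-voom and edgeR with upper-quartile or RLE scaling, with plain library sizes, with both other low-count filters, at a threshold of 0.05 or without the fold limit called 0 genes and 0 members. By DESeq2, 1119 genes were called, with 3 members and 22 genes of the related lists. Leaving out 1 library gave 0 to 2290 genes, 0 to 5 members and 0 to 46 list genes, with the highest value each time without αGlu 1 and 0 without any other library. DESeq2 without αGlu 1 called 4 members and 16.9% of all genes. Members without overlap numbered 2 with every scaling and 2 to 8 when 1 library was left out. The 8 came again without αGlu 1, with no more than 3 without any other library. On the scaling of all 6 libraries, αGlu 2 and 3 were both below every Ctr library for 32.2% of all genes tested. Both were above every Ctr library for 33.6%. The cause of the differences between settings was not tested.

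Of 150 fold changes of single members under alternatives, 148 kept their sign. The exceptions were Pdgfc without Ctr 1 (-0.13) and without αGlu 3 (-0.16), within a range of -0.16 to 0.26 when 1 library was left out. The αGlu to Ctr ratios of mean TPM and of mean CPM differed by less than the spread between libraries for all 10 members.

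To check whether numbers pair the libraries, each library's deviation from its group mean was correlated: r was 0.08, 0.06 and 0.15 for equal numbers and -0.11 to 0.046 for unequal ones. Every library correlated best with its own number, which is a hint from the data and not part of the design. With the replicate number as a block (replicate block), edgeR called 17 genes and 1 member, Fn1 (log2 fold change -3.11, adjusted p 0.0700).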
